A study of Rattus norvegicus with 67 samples.

Results

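Sperm histone retention was compared between F3 generation atrazine lineage males that had prostate disease together with at least 1 other disease and males of the same lineage without disease. The members were chosen by the disease tag of each animal: 5 of the 66 animals with counts have multiple disease that includes prostate disease (M21, M27, M34, M49 and M61), and 17 animals of the same count table have no disease. All 22 descend from outbred Sprague Dawley dams (the F0 generation) that received 25 mg/kg atrazine, a herbicide, by intraperitoneal injection from day 8 to 14 of gestation, and none was itself exposed. They are males whose pathology and sperm were examined at an age of 1 year. M21 is tagged with testis disease, prostate disease and the lean phenotype, M27 and M61 with prostate disease and the lean phenotype, M34 with late puberty and prostate disease, and M49 with late puberty, prostate disease and the lean phenotype. Prostate disease therefore never occurs alone, 4 of the 5 animals are also lean, and the comparison cannot tell prostate disease apart from the diseases that accompany it. The series also holds 8 multiple disease animals without prostate disease, 1 (M19) whose components are not given, 2 animals without disease outside this table (M59 and M68), the groups with a single disease, and 16 animals of the control lineage, whose F0 dams received the vehicle DMSO according to the lineage. The control lineage is not free of disease. Its animals M3, M4, M5, M7, M11, M15 and M17 are tagged with late puberty, obesity, kidney disease or the lean phenotype. M61 and 4 of the 17 animals without disease (M62, M65, M67 and M69) carry a treatment tag, DMSO, that contradicts their title and lineage tag. The same tag is on M59 and M68, on M57, M58 and M63 among the 8 multiple disease animals without prostate disease, and on some animals with a single disease, while all 16 control lineage animals carry the treatment tag Atrazine. The title and lineage were followed throughout. The pathology table of the study numbers its animals differently and could not be matched to the tags one by one. It holds no atrazine lineage male with just prostate disease and the lean phenotype, or with just late puberty and prostate disease, which are the tags of M27, M61 and M34, so the disease status of these animals rests on the sample tags alone.

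During the last steps of sperm formation most histones, the proteins around which DNA is wound in other cells, are replaced by protamines, small basic proteins that pack the DNA more tightly. A part of the genome keeps its histones, and such retained histones are studied as a possible carrier of epigenetic information from father to offspring. In ChIP-Seq the DNA bound to a protein is pulled down with an antibody and sequenced. The sample protocols name an antibody against all forms of histone H3, and the study's results describe a histone H3 antibody. The study's methods, however, give it or one against H3 trimethylated at lysine 27. The counts do not tell which was used, so a level here is that of DNA recovered with an H3 antibody. The prostate is an androgen dependent gland, and its disease was scored in the study on tissue sections from vacuoles, atrophy and hyperplasia of the glandular epithelium. Sperm, not prostate tissue, was sequenced.

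The counts are whole numbers in 2782040 windows of 1000 bp of the Rnor_6.0 rat genome. Total counts were between 42580931 and 69745698 in the 5 animals with prostate disease and between 22211333 and 80885350 in the 17 without disease. Most of these totals are larger than the number of reads per pool given in the study's methods. Whether a read was counted in several windows was not tested. Levels of a window are given as RPM, the reads of the window per 1000000 reads of the animal's total count. A window was tested if its mean over the 22 animals was 10 reads or more, which held for 2450727 windows or 88.1% of the table, with a median of 21.5 mean reads per window. At such depth the reads of a single window in a single animal have a large counting error, and an animal with 0 reads may still have a level of up to 3 reads, which is 0.0563 RPM in M49 and 0.0705 RPM in M61.

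Few windows differed, and none passed the adjustment for the number of windows. With edgeR's quasi-likelihood test, 168 windows had p below 0.0001, which is 0.00686% of the windows tested. A uniform distribution of p over the same windows would give 245.07. The smallest Benjamini-Hochberg adjusted p was 0.516, so 0 windows had an adjusted p below 0.05, while 119508 windows (4.88%) had an unadjusted p below 0.05. DESeq2's Wald test also gave 0 windows with an adjusted p below 0.05, and edgeR's exact test with tagwise dispersion gave 4. The 168 windows are described here as differential histone retention regions (DHRs) at the study's threshold of p. The study used an edgeR p-value and does not name the test, so its test may differ from the quasi-likelihood test. A list of 168 windows is not larger than the list that uniform p-values would give. This depends on the test, since edgeR's exact test gave 566 windows.

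**Figure D1:**
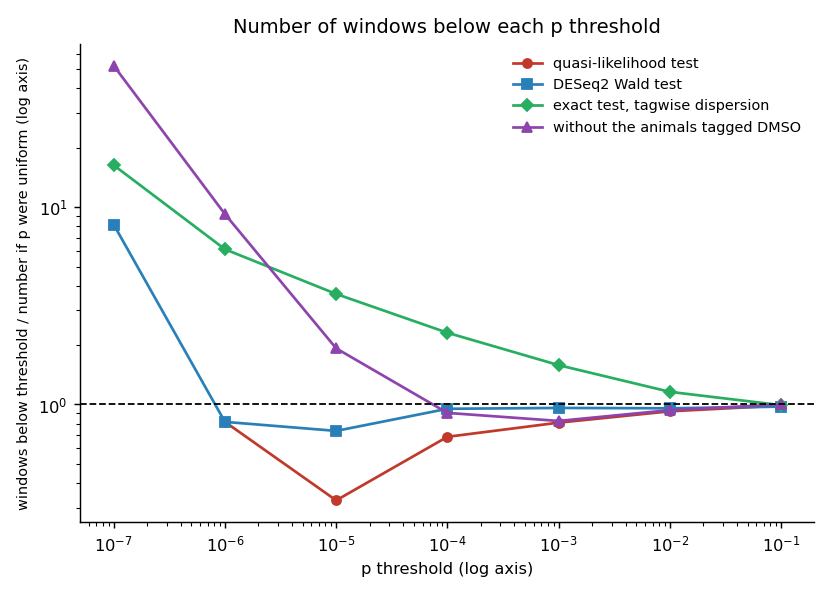
The number of windows below each p threshold, divided by the number that uniform p-values would give, is plotted against the threshold, both on log axes, for 3 tests on the same 22 animals and for the quasi-likelihood test without the animals tagged DMSO. The quasi-likelihood test lies under the dashed line at 1 at a threshold of 0.0001 (168 windows against 245.07), whereas the exact test lies above it (566 windows), and a point is missing where no window passed.

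After extension over neighbouring windows with p below 0.1 within 1000 bp, the 168 windows formed 167 DHRs. By the window of smallest p, histone retention with prostate disease was lower in 113 DHRs (114 windows, 0.00465% of those tested) and higher in 54 (54 windows, 0.0022%). Thus 32.3% were higher (exact 95% binomial interval 25.3% to 40.0%, for counting error only). The interval takes the DHRs as independent, although all come from the same animals, and with edgeR's exact test 43.5% were higher. Over all windows tested, 48.5% had a positive log2 fold change, with a median of -0.01. Among windows with an unadjusted p below 0.05, 42.5% were higher. A single window made up 93 of the DHRs, 51 had 2 windows, 17 had 3, and the longest had 9.

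In the 54 windows called higher, the median log2 fold change of prostate disease minus no disease was 0.88, with values from 0.56 to 1.54. The median of their mean levels was 0.608 RPM with prostate disease and 0.325 RPM without disease. In the 114 windows called lower, the median log2 fold change was -1.07, with values from -0.54 to -1.87, and the levels were 0.203 RPM with prostate disease and 0.433 RPM without disease. For all windows tested the median level without disease was 0.383 RPM, so the called windows are of ordinary depth. All 5 animals lay above all 17 in 6 windows called higher, and below all 17 in 13 called lower. Over all windows tested, such complete separation occurred in 86 windows upward (0.00351%) and 98 downward (0.004%), and most of these windows did not reach p below 0.0001. Just inside the threshold lay a window with p of 9.94e-05 and a log2 fold change of -1.61, and just outside it a window with p of 0.000101 and a log2 fold change of -1.07.

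The window with the smallest p lies on chromosome 5 (52633001 to 52634000) and was lower with prostate disease. Its levels were 0.351 RPM in M21, 0.344 in M27, 0.394 in M34, 0.563 in M49 and 0.329 in M61, from 15, 24, 27, 30 and 14 reads. The 17 animals without disease had between 0.576 and 1.11 RPM with a median of 0.779 RPM. The groups do not overlap, although M49 is close to the lowest animal without disease. The log2 fold change was -1.02 ± 0.19 (SE), with p of 3.2e-07 and an adjusted p of 0.516 in edgeR's quasi-likelihood test. It is the first window of a DHR that ends at 52636000 and holds 2 windows with p below 0.1. Its level was 0.704 ± 0.114 RPM (SD, n = 16) in the control lineage, 0.731 RPM in M59 and 0.659 RPM in M68, against a mean of 0.396 RPM in the 5 animals. Animals without prostate disease also lay inside the range of the 5, namely M56 (lean, 0.401 RPM), M64 (kidney disease, 0.423), M33 (testis disease, 0.431), M37 (multiple disease, 0.547) and M6 (control lineage, 0.542).

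A second window of chromosome 5 (62651001 to 62652000) was also lower. It held 0.281 RPM in M21, 0.215 in M27, 0.204 in M34, 0.131 in M49 and 0.047 in M61, against 0.225 to 0.853 RPM without disease (median 0.376). Here 2 of the 17 animals lay within the range of the 5, and M59, an animal without disease outside the comparison, had 0.146 RPM, which is below the mean of the 5. This gave a log2 fold change of -1.38 ± 0.27 (SE; p of 1.41e-06).

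On chromosome 8 (68793001 to 68794000) the 5 animals had 0.187, 0.229, 0.131, 0.0939 and 0.164 RPM in the order M21, M27, M34, M49 and M61. The animals without disease ranged from 0.208 to 0.641 RPM with a median of 0.403, and 1 of them lay within the range of the 5. That range also held 4 of the 16 control lineage animals, the lean animal M54 (0.198 RPM) and the testis disease animal M29 (0.228 RPM). A log2 fold change of -1.35 ± 0.27 (SE; p of 3.07e-06) was estimated.

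The study's own region lists place Kcnh2, which encodes a voltage-gated potassium channel of heart muscle and other cells, at a window of chromosome 4 (7370001 to 7371000). The lists come from comparisons that include these animals, and they name genes only at the regions they list. This window held 0.187 RPM in M21, 0.172 in M27, 0.175 in M34, 0.169 in M49 and 0.0235 in M61, the last from 1 read. Without disease the level was between 0.27 and 0.556 RPM with a median of 0.343, so the groups do not overlap. On the log2 scale the difference was -1.34 ± 0.28 (SE; p of 3.78e-06). Of the 44 animals outside the comparison, 5 reached the level of at least 1 of the 5 animals with prostate disease. They were 2 control lineage animals, 1 with kidney disease, 1 lean animal and M59, which had 0.131 RPM without disease.

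The window with the smallest p among those called higher lies on chromosome X (157528001 to 157529000). M21 had 0.258 RPM, M27 0.387, M34 0.335, M49 0.263 and M61 0.752, from 11, 27, 23, 14 and 32 reads. Without disease the levels were between 0 and 0.229 RPM with a median of 0.126, and every animal with prostate disease lay above them. The log2 fold change was 1.54 ± 0.29 (SE), with p of 4.21e-07 and an adjusted p of 0.516. M61 alone had over 0.7 RPM. The 17 animals had a mean of 7.65 reads here and the 5 had 21.4, so the window reached the minimum of 10 reads through the animals in which it was high, and without M61 it was not tested. Among the 8 multiple disease animals without prostate disease the mean was 0.197 ± 0.127 RPM (SD, n = 8), and M57 with 0.331 RPM and M58 with 0.400 RPM lay inside the range of the 5. So did M64 (kidney disease, 0.528 RPM), M60 (kidney disease, 0.315), M32 (testis disease, 0.284) and M13 (control lineage, 0.285).

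On chromosome 11 (53161001 to 53162000) the 5 animals had 0.609, 0.516, 0.554, 0.695 and 0.892 RPM in the same order. The animals without disease had between 0.192 and 0.537 RPM (median 0.309), and 2 of them reached the range of the 5. The difference was 0.99 ± 0.21 on the log2 scale (SE; p of 4.52e-06).

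A second window of chromosome X (17265001 to 17266000) was split within the group. M27, M34 and M61 had 0.545, 0.408 and 0.634 RPM, whereas M21 with 0.187 RPM and M49 with 0.225 RPM lay among the animals without disease, which ranged from 0.0447 to 0.284 RPM. Its log2 fold change was 1.33 ± 0.28 (SE; p of 7.52e-06). At the third named window of chromosome X (78779001 to 78780000) the 5 animals had between 0.281 and 0.446 RPM, above all 17 animals without disease, which had at most 0.26 RPM (log2 fold change 1.31 ± 0.30, SE). Both windows also reached the minimum of 10 reads through the animals in which they were high, with means without disease of 8.94 and 7.53 reads. This held for 5 of the 54 windows called higher, and 28 of the 114 called lower had a mean under 10 reads in the 5 animals, so complete separation at these windows is not a result.

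**Figure D2:**
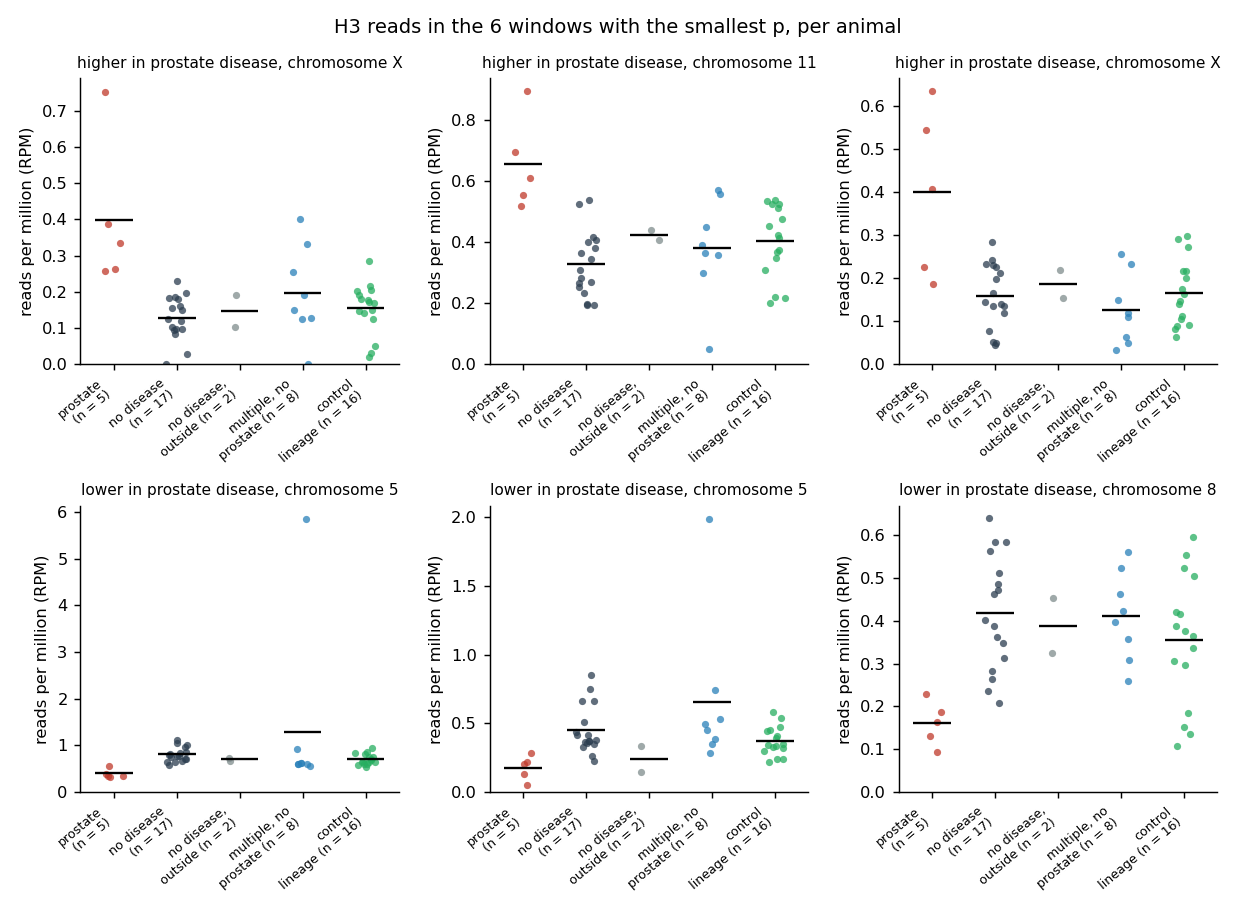
The level of each animal in RPM is shown for the 3 windows with the smallest p in each direction, with 1 point per animal and a bar at the group mean, for the animals with prostate disease, the animals without disease inside and outside the comparison, the multiple disease animals without prostate disease and the control lineage. The red points separate completely from the 17 animals without disease in the first window of each row, which is how they were found. Animals of other groups lie within the range of the 5 in some panels, such as M57 and M58 (0.331 and 0.400 RPM) in the first window called higher and M59 (0.146 RPM) in the second called lower, and M48 reaches 5.86 RPM in the first window called lower.

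The other 12 of the 20 named windows followed the same form. The windows called higher lie on chromosomes 17 (from 6676001), 8 (from 17165001), 16 (from 61051001), 5 (from 130347001), 13 (from 84147001) and 1 (from 130350001). Their log2 fold changes were 0.97, 1.04, 0.91, 0.93, 0.91 and 0.88. The windows called lower lie on chromosomes 6 (from 128976001), 2 (from 257864001), 12 (from 5532001), 10 (from 69826001), 13 (from 112291001) and 16 (from 37352001), with log2 fold changes of -1.83, -1.53, -1.51, -1.16, -1.06 and -1.04. In the window of chromosome 6, M49 had 0 reads and the other 4 animals between 2 and 10 reads, against 0.0806 to 0.417 RPM without disease. In all 20 windows every animal with prostate disease lay on the called side of the mean of the 17 animals, which is how such windows are found. The groups did not overlap in 2 of the 10 windows called higher, both on chromosome X, and 3 of the 10 called lower. Of these, just the window of chromosome 5 from 52633001 had a mean of 10 or more reads in both groups. The others passed the filter through 1 group, so their separation is not a result. The window of chromosome 5 was itself chosen for its p in these animals, so its separation is not a result either. Over all windows tested, 0.00351% separated upward and 0.004% downward. Of the 44 animals outside the comparison, between 3 and 30 reached the level of at least 1 of the 5 in each window called higher (median 9.5). In each window called lower, between 3 and 12 did (median 7.0). None of the 44 is tagged with prostate disease, although the components of M19 are not given.

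The longest DHR lies on chromosome 6 (51048001 to 51057000), holds 9 windows and was lower in the leading window, which has its smallest p. In its leading window M34 and M49 had 0 reads and M21 had 1 read, while M27 had 0.115 RPM and M61 0.235 RPM. The animals without disease had between 0.0521 and 0.657 RPM, and 10 of the 17 lay within the range of the 5 animals. The log2 fold change was -1.87 ± 0.45 (SE; p of 6.88e-05), and the control lineage had 0.0953 ± 0.0893 RPM (SD, n = 16), close to the mean of 0.0746 RPM with prostate disease and below the 0.269 RPM without disease. The second longest, on chromosome 15 (30572001 to 30580000), holds 8 windows and was higher in its leading window, with a log2 fold change of 0.71 ± 0.17 (SE). Its 5 animals had 0.96 to 1.40 RPM, and 1 of the 17 animals without disease reached that range. The third, also on chromosome 15 (5489001 to 5496000), was lower in its leading window, with a log2 fold change of -0.54 ± 0.13 (SE). The levels there were 1.37 to 2.37 RPM with prostate disease against 2.00 to 3.65 RPM without disease.

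A pair of further called windows have a gene in the study's lists, and they and the next are given here after their values were seen. The window at Caprin2, which encodes an RNA binding protein, lies on chromosome 4 (183376001 to 183377000) and was lower, with 0.244 RPM against 0.492 RPM without disease (log2 fold change -0.95 ± 0.23, SE). The window at the gene model AABR07004061.1 on chromosome 1 (123485001 to 123486000) was higher, with 0.539 RPM against 0.286 RPM (log2 fold change 0.88 ± 0.22, SE). A window of chromosome 12 (39640001 to 39641000) lies between entries that the lists give to Anapc7, which encodes a subunit of the anaphase-promoting complex, and was lower, with 0.166 RPM against 0.372 RPM (log2 fold change -1.18 ± 0.29, SE). Genes at the remaining called windows were not analysed here, since no annotation of this genome build was used.

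Away from the called window the difference was small. At the window of smallest p, the median log2 fold change was 0.88 in the DHRs called higher and -1.07 in those called lower. In the next window on either side it was 0.19 and 0.12 in the former and -0.17 and -0.14 in the latter. At 10 kb it was 0.10 upstream and 0.01 downstream of DHRs called higher, and -0.04 and -0.08 for those called lower. The window at 0 was chosen for its value, and its neighbours were not.

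**Figure D3:**
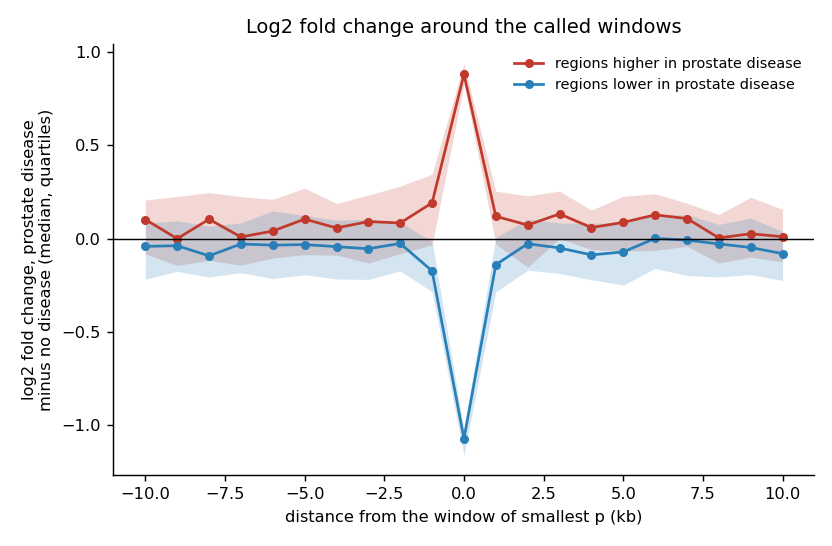
The log2 fold change of prostate disease minus no disease is plotted against the distance in kb from the window of smallest p, as the median (points) and the quartiles (bands) over the DHRs called higher and lower. Both curves fall from the selected window (0.88 and -1.07) to within 0.2 of 0 at a distance of 1 kb.

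The DHRs were spread over 21 chromosomes, and their number was not tested against the number of windows. Chromosome 1 held 18 DHRs (10.8%) and 10.3% of the windows tested, and chromosome 2 held 10 DHRs (5.99%) and 9.79% of the windows. Chromosome 15 held 13 DHRs (7.78%) on 4.14% of the windows, and chromosome 11 held 2 (1.20%) on 3.39%. All 13 DHRs of chromosome 6 and all 8 of chromosome 10 were lower, and 5 of the 7 of chromosome X were higher. The median log2 fold change of all windows was 0.10 on chromosome X, -0.01 on chromosome 6 and -0.04 on chromosome 10. No DHR was found on the Y chromosome or the mitochondrial genome.

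The called windows were then read in animals that were not used to call them. Summed over the 54 windows called higher, the 5 animals had between 38.4 and 44.3 RPM and the 17 animals without disease between 19.2 and 27.5 RPM, a difference that the selection of windows fixes. The 8 multiple disease animals without prostate disease had between 10.3 and 29.9 RPM, and the 5 lean animals between 18.6 and 28.2 RPM. The 5 late puberty animals had between 25.3 and 29.6 RPM, and the 4 testis disease animals between 26.2 and 27.7 RPM. Levels were between 25.8 and 28.4 RPM in the 3 kidney disease animals and between 20.6 and 30.6 RPM in the 16 control lineage animals. The windows were chosen for high levels in the 5 animals and low levels in the 17, which also places animals that were not used below the 5. M59 and M68, without disease, had 27.8 and 26.04 RPM.

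Summed over the 114 windows called lower, the 5 animals had between 23.6 and 26.5 RPM and the 17 between 46.95 and 71.1 RPM. The multiple disease animals without prostate disease had between 42.5 and 145 RPM, the lean animals between 44.5 and 81.8 RPM, the late puberty animals between 43.6 and 50.2 RPM, and the control lineage between 40.8 and 57.2 RPM. The highest values belong to M48 (145 RPM) and the lean animal M28 (81.8 RPM). M59 and M68 had 42.2 and 43.1 RPM, below all 17 animals without disease that were used for the call and far above the 5. The choice of windows sets this order too, so it says nothing of prostate disease. No animal tagged with prostate disease was left out of the call, and no level of these windows in such an animal is independent of their choice.

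**Figure D4:**
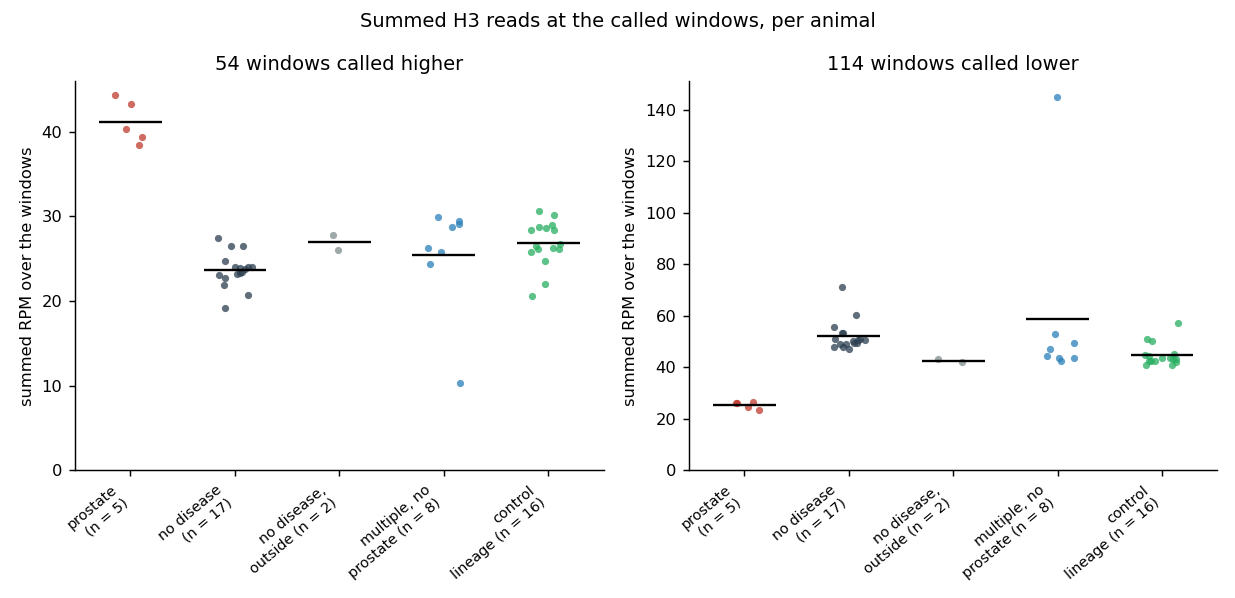
The summed level in RPM over the 54 windows called higher and the 114 called lower is shown with 1 point per animal and a bar at the group mean. The 5 animals with prostate disease were used to choose the windows and lie at 38.4 to 44.3 RPM and 23.6 to 26.5 RPM, a position that the choice fixes. The 17 animals without disease lie at 19.2 to 27.5 RPM and 46.95 to 71.1 RPM, and M48 at 145 RPM in the second panel.

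The size of the called differences moved little when 1 of the 5 animals was left out. The median log2 fold change lay between 0.83 and 0.91 for windows called higher and between -1.04 and -1.10 for those called lower. All windows tested in these fits kept their direction and an unadjusted p below 0.05, which their choice with all 5 animals favours. Of the windows called with all 5 animals, p was below 0.0001 in 64 of 167 tested without M21, 48 of 165 without M27, 64 of 166 without M34, 59 of 166 without M49 and 43 of 165 without M61. Of the 164 called windows tested in all 5 fits, 4 kept p below 0.0001 in each, those of chromosome 2 (from 257864001), chromosome 5 (from 52633001 and from 62651001) and chromosome 8 (from 68793001), and all 4 were lower. The window of chromosome X from 157528001 kept it in the 4 fits that tested it, and was not tested without M61, its highest animal. It passed the filter through the animals in which it was high, so these fits are not support for it. Over all windows tested, the number with p below 0.0001 was 206 without M21, 137 without M27, 195 without M34, 135 without M49 and 113 without M61, against 168 with all 5, so other windows entered the list when an animal was left out. Without the animals tagged DMSO, 45 of the 168 windows kept p below 0.0001, with M61 and 4 reference animals left out. With the tag as a covariate 167 did.

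The 5 animals were also compared with the 8 multiple disease animals without prostate disease in a fit of their own. The other diseases differ between these groups. Kidney disease is tagged in 4 of the 8 animals and 0 of the 5, testis disease in 4 and 1, obesity in 2 and 0, and tumor in 1 and 0. Prostate disease cannot be told apart from them. Of 2381256 windows tested, 6 had p below 0.0001 (0.000252%), where uniform p-values would give 238.13. Of these 2 were higher (8.4e-05%) and 4 lower (0.000168%). No window had an adjusted p below 0.05 in edgeR's quasi-likelihood test (smallest 0.987), and 88246 (3.71%) had an unadjusted p below 0.05. These counts depend on M48, whose summed levels stood apart from those of the other 7 animals. Without M48, 214 of 2422756 windows had p below 0.0001 (0.00883%), where uniform p-values would give 242.28, and 9 had an adjusted p below 0.05.

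Higher with prostate disease was a window of chromosome 6 (21655001 to 21656000), where the 5 animals had 0.459 to 0.845 RPM and the 8 animals 0.149 to 0.356 RPM. Its log2 fold change was 1.16 ± 0.23 (SE; p of 6e-05). A window of chromosome 4 (91824001 to 91825000) was higher too, with 0.481 to 0.705 RPM against 0.187 to 0.333 RPM (log2 fold change 1.07 ± 0.22, SE). The windows called lower on chromosomes 10 (from 109753001), 15 (from 58238001) and 6 (from 46442001) had log2 fold changes of -1.37, -1.24 and -1.23. On chromosome 10 the 5 animals had 0.102 to 0.305 RPM and the 8 animals 0.347 to 0.727 RPM. These windows were chosen for their p in the same animals, so separation of the groups is not a result. Its share over all windows of this fit was not counted. None of these 5 windows was among the 168 of the first comparison.

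Of the 9 windows with an adjusted p below 0.05 without M48, 6 have levels that vary with the mitochondrial reads described next: 2 lie on the mitochondrial genome, and 4 on chromosomes 5 (from 6373001), 8 (from 181001 and from 182001) and 20 (from 19484001). The other 3 lie on chromosome 1 (from 11976001, higher, and from 76479001, lower) and chromosome 6 (from 142660001, higher). In the fit with all 8 animals, the windows called in the first comparison had a median log2 fold change of 0.68 where they had been called higher (54 tested) and -1.10 where they had been called lower (105 tested), against -0.02 over all windows. Both comparisons use the same 5 animals, so these values are not independent of the call.

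Broad differences were looked for in 2781 bins of 1 Mb. No bin had an adjusted p below 0.05 in edgeR's quasi-likelihood test (smallest 0.863), and 15 bins (0.539%) had an unadjusted p below 0.05. The log2 fold changes lay between -0.10 and 0.11 in the central 95% of bins. The bin with the smallest p lies on chromosome 14 (15000001 to 16000000), with 407.9 ± 10.1 RPM (SD, n = 5) against 392.3 ± 10.4 RPM (SD, n = 17), a log2 fold change of 0.06 ± 0.02 (SE). The next bins higher with prostate disease lie on chromosomes 20 (from 1) and X (from 6000001), with log2 fold changes of 0.06 and 0.11. The bins lower lie on chromosomes 7 (from 64000001 and from 69000001) and 9 (from 47000001), with -0.04, -0.03 and -0.04. In 27775 bins of 100 kb, 710 (2.56%) had an unadjusted p below 0.05 and none an adjusted p below 0.05. For both sizes of bin the share with an unadjusted p below 0.05 is under the share that uniform p-values would give. The test of bins therefore cannot show that broad differences are absent.

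The share of reads on each chromosome and in the 5% of windows with the highest level gave 24 measures, each compared by a two-sided exact permutation test over all 26334 assignments of 5 of the 22 animals. None had p below 0.05, and the smallest adjusted p was 0.572. Chromosome X held 3.30% ± 0.12 of the reads (SD, n = 5) with prostate disease and 3.07% ± 0.27 (SD, n = 17) without disease (exact permutation p of 0.0772). The top 5% of windows held 12.8% ± 0.1 and 12.4% ± 0.5 of the reads (exact permutation p of 0.108).

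Mitochondrial reads differed widely between animals of both groups. Sperm carry mitochondria in the midpiece, and mitochondrial DNA is not wound around histones, so these reads are not a measure of histone retention. They made up 621.9 RPM in M21, 122.8 in M27, 107.7 in M34, 274.8 in M49 and 61.8 in M61. Without disease they were between 56.98 and 437.4 RPM with a median of 146.5. M21 was the highest of the 22 animals and M61 was near the lowest, so the groups overlap over most of their range (exact permutation p of 0.31 for the share of reads). All 17 mitochondrial windows nevertheless had an unadjusted p below 0.05 in the window test, with a median log2 fold change of 0.51. They are pieces of 1 molecule and not separate results. The mean difference in mitochondrial share turned negative when M21 was left out.

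Without the animals tagged DMSO, 20 windows had an adjusted p below 0.05 in edgeR's quasi-likelihood test, all higher with prostate disease, and 11 of these were mitochondrial. Another 7 lie on chromosomes 5 (6372001 to 6375000), 8 (181001 to 183000) and 20 (19484001 to 19486000), and their reads moved with the mitochondrial reads. The window of chromosome 20 from 19484001 held 29.2 RPM in M21, 10.1 in M49, 3.94 in M27, 3.72 in M34 and 1.62 in M61, and its reads were between 2.62% and 4.69% of the mitochondrial reads in each of the 22 animals. M69, an animal without disease that carries the tag, had 437.4 RPM of mitochondrial reads and 16.4 RPM in this window, and M61, which carries it too, had the lowest values of the 5 animals, so the setting leaves out both. The cause of the 20 windows was not tested. Whether reads from the mitochondrial genome were mapped to these windows was not tested. The other 2 windows lie on chromosomes 1 (from 11976001) and 6 (from 30642001). In both, M27 and M34 were the highest of the 5 animals, with 3.66 and 2.27 RPM on chromosome 1 against 0.76 to 2.34 RPM without disease.

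**Figure D5:**
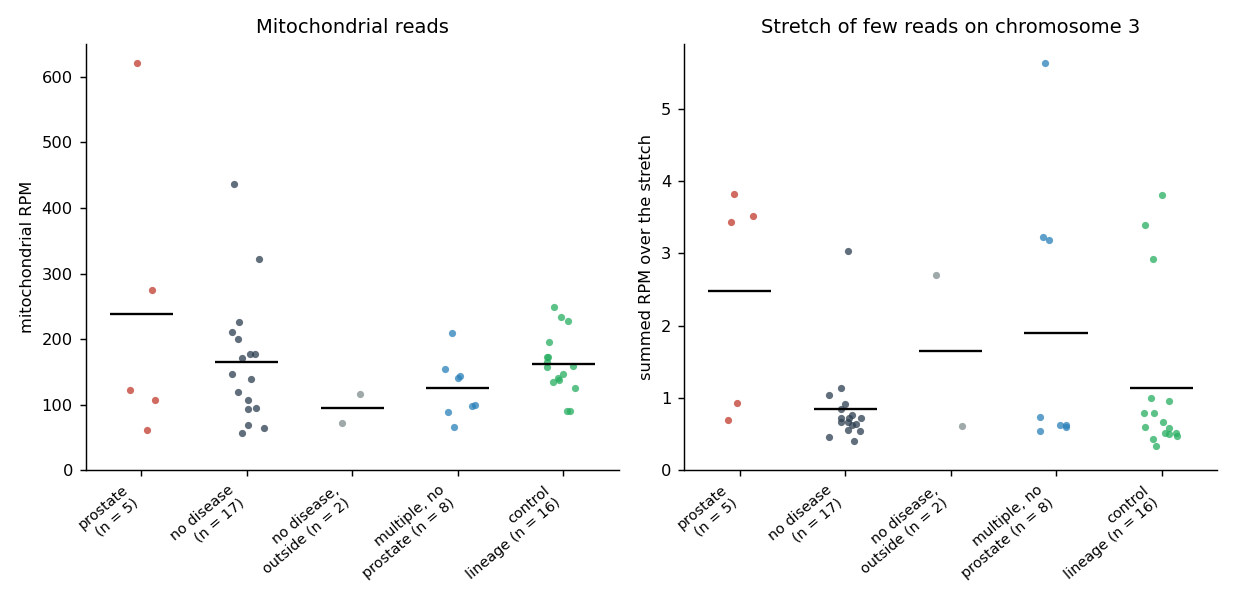
Mitochondrial reads (first panel) and the summed level of a stretch of few reads on chromosome 3 (second panel) are shown in RPM with 1 point per animal and a bar at the group mean. M21 stands at 621.9 RPM among the animals with prostate disease, and on the stretch M27, M34 and M61 lie above 3 RPM with 1 of the 17 animals without disease.

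Windows with fewer than 10 reads on average were outside the main comparison. When they were added, 4 windows had an adjusted p below 0.05 in edgeR's quasi-likelihood test, and all had under 10 reads on average, so that their levels rest on few reads. A pair of windows on chromosome 3 (from 73261001 and from 73263001) lie in a stretch of 15 windows (73256001 to 73271000) in which most animals without disease have few reads. In the first, M27 had 24 reads, M34 had 16, M61 had 12, M21 had 3 and M49 had 1, and 14 of the 17 animals without disease had 0 reads. Summed over the stretch, M34 had 3.82 RPM, M27 had 3.51 and M61 had 3.43, while M49 with 0.939 RPM and M21 with 0.702 RPM were like the animals without disease, of which M43 alone had 3.03 RPM and the rest between 0.413 and 1.15 RPM. M59, without disease and outside the comparison, had 2.70 RPM. Levels of up to 5.63 RPM occurred in multiple disease animals without prostate disease, up to 3.73 RPM in kidney disease animals, and up to 3.81 RPM in the control lineage, so high levels of this stretch are found with and without prostate disease and in both lineages. A window of chromosome 6 (from 123449001) had at least 3 reads in 4 of the 5 animals and 1 of the 17, and also in M59, M68 and 4 of the 5 lean animals. A window of chromosome 14 (from 102569001) had at least 3 reads in 3 of the 5 animals, in 1 of the 17 and in 11 of the 16 control lineage animals.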

How the data were processed

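Sperm ChIP-Seq counts of F3 generation males were analysed. The deposited values are raw counts per 1000 bp window, which the authors made by cleaning reads with Trimmomatic, mapping them to Rnor_6.0 with Bowtie2 and counting with MEDIPS, without normalization. Read extension and duplicate treatment are not given in the sources used here. The methods describe sperm pools, whereas counts are given per animal. Relatedness of the animals is not given, nor which of them shared a sequencing lane. The p-values take these animals as independent, and may be too small if they are not. The 298 other per-animal columns of the 6 tables, which hold RPKM values or repeated counts, and the authors' fold changes and p-values were not used. Animal M1 has no counts here.

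Counts were tested in R 4.3.3 with edgeR 4.0.16 (quasi-likelihood test, TMM normalization, factors 0.970 to 1.011, dispersion trend from 200000 random windows) and Benjamini-Hochberg adjustment over all windows tested. Windows with p below 0.0001 were extended over p below 0.1 within 1000 bp. SE is the size of the log2 fold change divided by the square root of F. RPM of windows uses total counts, and RPM of bins uses TMM-scaled totals. Bins of 1 Mb had at least 500 windows and a mean of 1000 reads. Permutation tests were run in Python 3.11.15 with SciPy 1.17.1. Alternatives used DESeq2 1.42.0, whose Wald test was run in 10 interleaved parts, edgeR's exact test, other filters and factors, and other sets of animals. The scripts were tested on simulated data.

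Named windows are the 10 of smallest p in each direction, any with an adjusted p below 0.05, the 3 longest DHRs, and the 3 of smallest p in each direction of the direct comparison and of the bins. The members and these lists were chosen with earlier results of these data known. Gene names come from the study's region lists. No sequence or annotation of Rnor_6.0 was used. Intervals and the floor of 3 reads cover counting error only.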

Additional observations from a re-analysis of the deposited data

Results flagged for a closer look

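Of 47 sets of 5 values looked at for an animal apart from the other 4, 5 had one, and chance flags about 1 in 20 groups. M61 stood apart with 0.752 RPM at the window of chromosome X from 157528001 and with 0.0235 RPM at the window of chromosome 4 from 7370001. M21 stood apart with 0.937 RPM at the window of chromosome 1 from 130350001, and M49 with 0.563 RPM at the window of chromosome 5 from 52633001. M34 had the lowest share of reads in the top 5% of windows, 12.5%.

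A signal in windows outside the main comparison was found where reads were too few for the filter. The log2 fold change of prostate disease minus no disease was 3.98 at the window of chromosome 3 from 73261001, 3.49 at the window of the same chromosome from 73263001, 3.20 on chromosome 6 from 123449001 and 3.54 on chromosome 14 from 102569001. These values depend on the prior count, since most animals without disease had 0 reads there, and each group outside the comparison held at least 1 animal with 3 or more reads in the first of these windows. The cause was not tested.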

How the results depend on the processing

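The numbers of windows with p below 0.0001 and of DHRs rose to 566 and 565 with edgeR's exact test, of which 43.5% were higher, and this test gave 4 windows with an adjusted p below 0.05, on chromosomes 4 (from 7370001), 5 (from 52633001), 13 (from 6653001) and X (from 157528001). Without a filter on reads 40.7% of DHRs were higher and 4 windows passed the adjustment, and without the animals tagged DMSO 20 did. The cause of these differences was not tested. With 1 of the 5 animals left out, the windows numbered 113 to 206, the DHRs 108 to 203 and the share higher was 25.6% to 32.6%, with 0 windows past the adjustment. The 108 DHRs were found without M61. In the comparison within multiple disease, leaving out M48 gave 214 windows (242.28 if p were uniform), 186 DHRs and 9 windows past the adjustment. A mean of at least 20 reads there gave 80% of DHRs higher, from just 5 windows with p below 0.0001, against 33.3% of 6 DHRs in the main fit. Leaving out 1 of the 5 animals in this comparison gave 1 to 5 windows, 1 to 4 DHRs and 0% to 75% higher. The single window and DHR were found without M61, and 3 of each without M21. Bins of 100 kb had an unadjusted p below 0.05 in 2.56%, and for 1 Mb bins this was 0.144% to 0.935% with 1 animal left out, lowest without M27 or M49, 0.216% without M61 and highest without M21. The mean difference in mitochondrial share of reads lay between -0.00240 and 0.0116 percentage points with 1 animal left out, and the former is without M21. The other 252 values that answer a comparison stayed on the same side of their threshold or within the limit set for counts and shares. The 23 named windows kept their direction in all 307 refits in which they were tested, and p below 0.0001 in 180 of 198 with all 5 animals or another setting and 72 of 109 with 1 animal left out. These windows were chosen for p below 0.0001 in largely the same animals, which favours these counts. No paired analysis was possible because the labels number every animal once and share no number between groups. The median over the windows tested was 21.5 mean reads, which limits what a single window can show.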
